A study of Mus musculus with 6 samples.

Results

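The genes described here are 30 mouse genes of macrophage identity and of efferocytosis, the uptake of dying cells. They were chosen by symbol as resident macrophage markers, scavenger and apoptotic cell receptors, lipid handling genes, Fc receptors and a monocyte gene. Of the 30, 29 were measured by at least 1 probe set (a group of short probes on the array that reads 1 transcript) naming only that gene, among 18193 genes measured in the same way. The exception was Ly6c2, whose only probe set also names Ly6c1, so no value is given for it. The 29 genes had 57 probe sets of the 45037 that are not controls.

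The study compared 2 regions of the femur of male C57BL/6 mice, 8 weeks old, all injected with saline into the peritoneum. Central RNA came from marrow flushed out of the shaft with buffered saline and pelleted before lysis in Trizol, an RNA extraction reagent. Endosteal RNA came from Trizol passed through the emptied shaft, so it holds whatever cells stayed on the inner bone surface and was lysed in place. Femurs of 3 mice gave 3 central and 3 endosteal Affymetrix arrays, lettered A to C in each region. In RNA from a whole region, more cells of a type and more RNA per cell cannot be told apart.

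Bone marrow macrophages clear the nuclei expelled by erythroblasts, aged neutrophils and dying haematopoietic cells, and a distinct set of them lies along the bone surface. A dying cell exposes phosphatidylserine, which receptors such as Tim-4 bind directly, whereas the TAM receptor tyrosine kinases (Tyro3, Axl and Mertk) bind it through the bridging proteins Gas6 and protein S. The engulfed cell loads the phagocyte with cholesterol, and sensors such as the liver X receptors (LXRs) then raise Abca1, Abcg1 and Apoe, which export it. The macrophage fate itself depends on the transcription factor PU.1, encoded by Spi1, and on signals through the receptor Csf1r.

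Promoter sequence was found in RefSeq (GRCm38.p6) for 22 of the 30 genes, and the 150 bases before each start site were searched on both strands. The search used AGAGGAA, a core of PU.1-type sites, CCGCCC, the GC box, and a loose form of the LXR direct repeat, NGGTNA and NGGTCA with 4 bases between them. Of 32851 promoter windows of this length, 5.12% held AGAGGAA, 28.6% held CCGCCC and 0.113% held the repeat. Among the 22 genes these letters were found in at least 1 window of 8, 8 and 1. Some of the genes have several windows, so these counts per gene are not comparable with the shares per window. Of 6 genes with promoter sequence that were higher in endosteal RNA, 2 held AGAGGAA, 4 the GC box and 1 the repeat, and Gpnmb held none. The other genes with AGAGGAA were not among those higher in endosteal RNA. The 4 windows below were picked among higher genes with a match, 1 for cholesterol export, 1 for the mannose receptor and 2 for the TAM receptors. Capitals mark the matches.
Abca1, chr4:53159896-53160045, minus strand: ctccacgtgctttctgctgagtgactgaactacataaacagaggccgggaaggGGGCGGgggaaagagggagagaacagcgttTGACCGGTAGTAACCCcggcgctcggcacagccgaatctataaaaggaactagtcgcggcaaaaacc
Mrc1, chr2:14229264-14229413, plus strand: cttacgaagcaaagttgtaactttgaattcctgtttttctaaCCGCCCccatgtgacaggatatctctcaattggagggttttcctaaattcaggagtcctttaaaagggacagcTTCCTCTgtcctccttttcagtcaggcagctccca
Mertk, chr2:128698765-128698914, plus strand: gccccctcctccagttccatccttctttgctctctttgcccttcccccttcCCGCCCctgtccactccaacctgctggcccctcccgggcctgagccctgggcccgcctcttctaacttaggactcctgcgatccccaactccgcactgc
Axl, chr7:25788734-25788883, minus strand: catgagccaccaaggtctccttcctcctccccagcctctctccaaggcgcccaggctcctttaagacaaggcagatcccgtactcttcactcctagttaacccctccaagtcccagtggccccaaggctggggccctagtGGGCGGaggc
In the Abca1 window the repeat lay 67 to 52 bases before the start, beside a GC box at 97 to 92. The Mrc1 window held AGAGGAA on the opposite strand, 35 to 29 bases before the start, and a GC box at 108 to 103. Mertk and Axl had only the GC box, at 99 to 94 and at 10 to 5. A match is a stretch of letters, and binding was not measured.

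The comparison asked how these genes differ between RNA left on the inner bone surface and RNA of the flushed marrow. Of the 29 measured genes, 7 rose in endosteal RNA and 0 fell. The 7 were the TAM receptors Mertk and Axl, the mannose receptor Mrc1, the transcription factor Maf, and the lipid-associated genes Apoe, Abca1 and Gpnmb, whose fitted rises ran from 1.80-fold to 3.46-fold. Broadly expressed macrophage and myeloid genes, among them Adgre1, Fcgr3, Fcgr2b, Lgals3, Tyrobp, Csf1r, Cd68 and Fcgr1, did not pass. Of these, Adgre1, Fcgr3 and Fcgr2b overlapped between regions, and Lgals3 and Tyrobp were lower in all endosteal arrays. Csf1r, Cd68 and Fcgr1 were higher in all endosteal than in all central arrays, at log2 differences of 0.37, 0.48 and 0.40. Other receptor, resident macrophage and lipid genes did not pass either. Among them were Timd4, Tyro3, Cd5l, Siglec1, Vsig4, Folr2, Lyve1, Marco, Msr1, Trem2 and Abcg1.

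Each gene was read by its probe set with the highest mean log2 signal, and every difference below is endosteal minus central on log2(signal + 16), with 3 arrays a region. A gene is called, or said to rise or fall, where its two-sided limma p, adjusted by Benjamini-Hochberg over all 18193 genes, was under 0.05. By that rule 7.74% of all genes were called higher and 3.97% lower, against 7 of 29 (24.1%) and 0 of 29 here. The genes were chosen with earlier results of these data known, so these shares are not an independent comparison. At an unadjusted limma p under 0.05 the counts here were 10 higher and 1 lower (F13a1). The share of all genes at that level is not given here, so these counts have no baseline. The median difference over the 29 genes was 0.22, beside 0.10 over all genes. All 3 endosteal arrays lay above all 3 central arrays for 11 of the 29 (22.1% of all genes did so), and below them for 3 (15.4% of all genes).

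Both regions came from the same 3 mice, although the labels do not tie each letter to 1 animal. With the letter as a replicate block in limma, 0 of the 29 genes were called. At an unadjusted p under 0.05, again without the share of all genes, 9 were higher and 1 was lower. The 7 genes then had adjusted p-values of 0.0521 to 0.0939, while 0.467% of all genes were called higher and 0 were called lower. Leaving out any 1 of the 6 arrays left 2 to 5 of the 29 called higher, while the count over all genes went from 1409 to between 502 and 890. Apoe and Mertk were called in all 6 of those fits, Maf in 5, Mrc1 in 2, Gpnmb and Axl in 1 each, and Abca1 in 0.

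The arrays had been scaled to the same trimmed mean signal (500.003), with median signals of 97.2 to 106 in central and 120 to 131 in endosteal RNA, and 15.9% to 20.1% of probe sets lay below 16. Of the 29 genes, 21 lay above the median level of all genes. The scaling makes every difference relative to the rest of the array. The 12 poly-A control probe sets were 1.03 lower on the log2 scale in endosteal RNA, and after scaling to them 23 of the 29 genes (79.3%) and 58.7% of all genes were called higher. All 29 differences were then above 0, those given below as negative included. Over all genes the calls were 1409 higher and 723 lower as deposited (median 0.10), 927 and 1783 after median centring (median -0.16), and 10675 and 49 after scaling to the poly-A controls (median 0.97). All 7 genes were called after quantile normalisation, median centring and scaling to those controls.

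**Figure D1:**
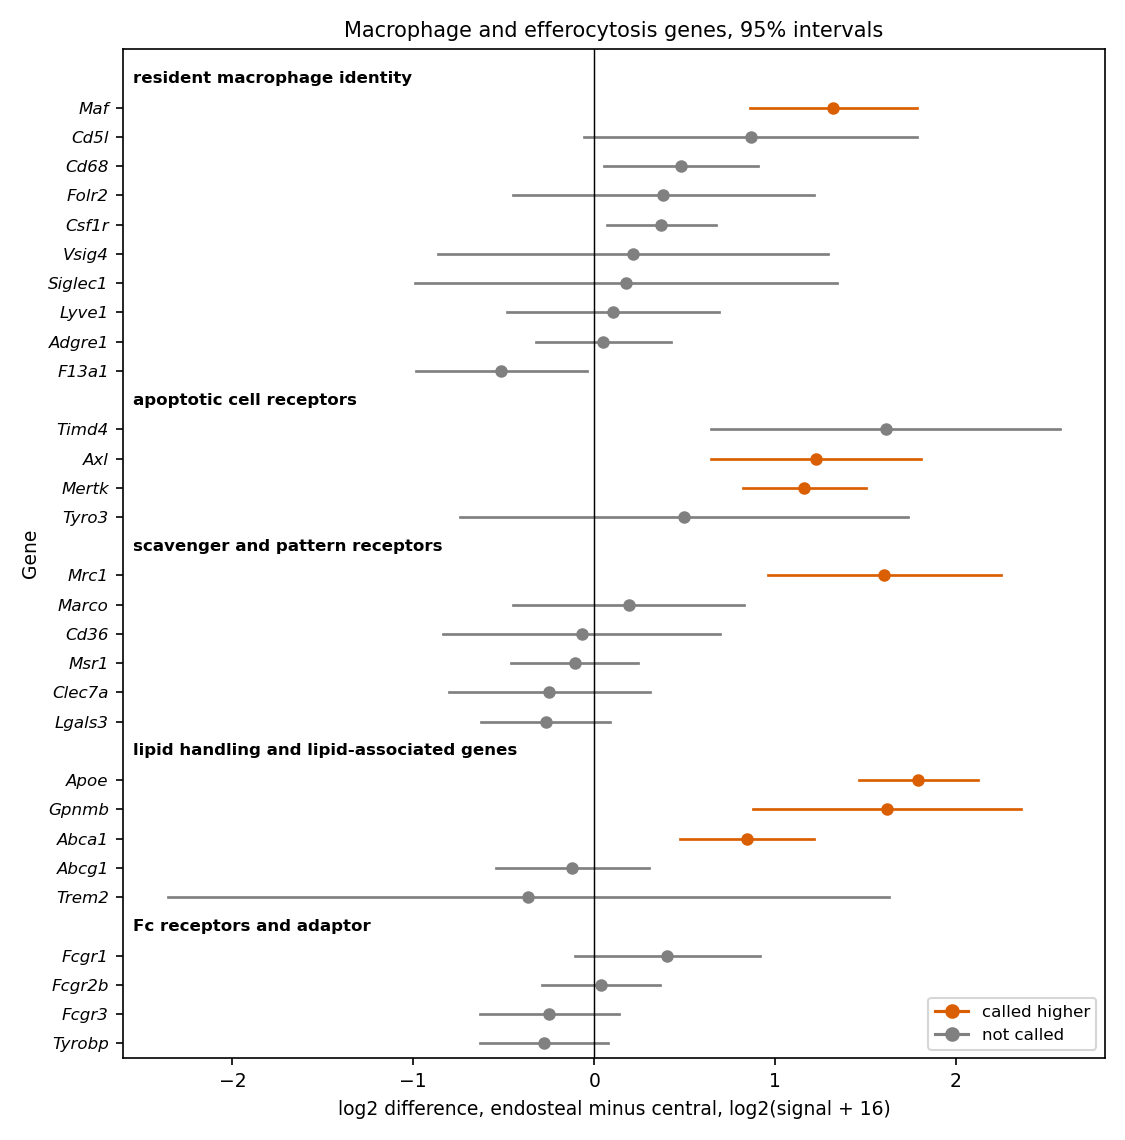
Log2 difference between regions (endosteal minus central, horizontal axis) for the 29 measured genes, grouped by role, as points with 95% confidence intervals from the limma fit of 3 arrays a region. The 7 called genes, in orange, lie between 0.85 and 1.79, and Timd4 and Trem2 have wide intervals.

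The receptors for dying cells were the group with the largest median difference, 1.19 over 4 genes, of which 2 rose. Mertk, a TAM receptor by which macrophages engulf apoptotic cells, had signals of 452, 557 and 529 in the central and 1171, 1232 and 1088 in the endosteal arrays, in the order A, B, C kept throughout. The lowest endosteal array was above the highest central one by a wide margin. The mean went from 513 ± 54.4 to 1164 ± 72.2 (SD, n = 3), a difference of 1.16 (SE 0.14, adjusted p = 0.0102; 0.0623 with the replicate block).

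Axl, the TAM receptor that depends on Gas6, had signals of 604, 905 and 727 in central and 1346, 2038 and 1929.9 in endosteal arrays. Array A was the lowest of both regions, and the regions did not overlap. Its mean went from 745 ± 151 to 1771 ± 373 (SD, n = 3), a difference of 1.23 (SE 0.23, adjusted p = 0.0308; 0.0585 with the block). The call was kept only without endosteal A (adjusted p = 0.0401); without central A, B or C it was 0.0914, 0.0637 or 0.0931, and without endosteal B or C 0.0845 or 0.0796. Averaging the 2 Axl probe sets gave 0.86 with an adjusted p of 0.158, the other one being near the floor at means of 22.7 and 33.3.

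Timd4 encodes Tim-4, a phosphatidylserine receptor of resident macrophages. Its signals were 7.78, 28.9 and 37.9 in central and 65.0, 123 and 129 in endosteal arrays, so the regions did not overlap and central A was far the lowest. The difference of 1.61 (SE 0.39) missed the threshold with an adjusted p of 0.0541, and its 95% interval was 0.65 to 2.58. Its size depends on the pseudocount, at 2.24 with 1 (adjusted p = 0.0957) and 0.93 with 64 (adjusted p = 0.0298). It also passed with the letter as a random block, with an intensity trend in the variance or after scaling to the poly-A controls. It missed the threshold after quantile normalisation (adjusted p = 0.0953), after median centring (0.0643) and with the fixed replicate block (0.0535). Leaving out any 1 array gave adjusted p-values of 0.0660 (without endosteal A) to 0.133 (without endosteal B). Its central mean of 24.8 was near the floor. Tyro3, the TAM receptor best known from the nervous system, was dim, at 6.02, 35.4 and 61.5 in central and 30.8, 67.0 and 47.5 in endosteal arrays, with overlapping regions (difference 0.50, interval -0.74 to 1.74, adjusted p = 0.568).

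**Figure D2:**
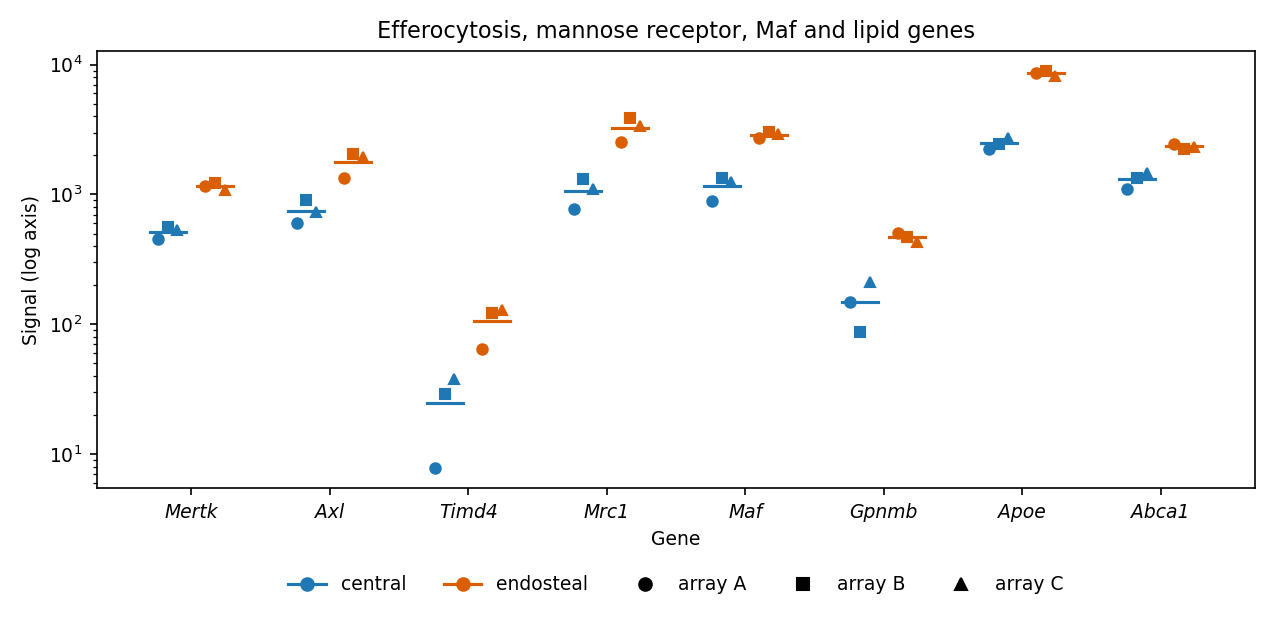
Signal on a log axis for the 7 called genes and Timd4, 1 point per array (circle A, square B, triangle C), central in blue and endosteal in orange, with bars at the mean of 3 arrays. The endosteal points lie above the central points for all 8 genes, with Timd4 running from 7.78 to 129.

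Of the 5 lipid-handling and lipid-associated genes 3 rose, with a median of 0.85. Apoe, which encodes an apolipoprotein that carries exported cholesterol, showed the largest difference of the 29. Its signals were 2232, 2466 and 2713 in central and 8605, 8988 and 8124 in endosteal arrays, and each region was tight compared with the gap between them. The mean went from 2470.2 ± 241 to 8573 ± 433 (SD, n = 3), a 3.46-fold rise in the fit (log2 difference 1.79, SE 0.13, adjusted p = 0.00360; 0.0521 with the block).

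Abca1, the transporter that passes cholesterol to lipid-poor apolipoproteins and whose promoter held the repeat, had signals of 1105, 1345 and 1464 in central and 2448, 2257 and 2322 in endosteal arrays. The regions did not overlap. The difference was 0.85 (SE 0.15, adjusted p = 0.0257; 0.0939 with the block), the smallest among the called genes. It was lost without any 1 array, at adjusted p-values of 0.0564 (without central C) to 0.0849 (without central B). The other 2 Abca1 probe sets gave larger differences, 1.25 and 1.21, and the mean over its 3 probe sets passed (1.10, adjusted p = 0.0234).

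Gpnmb, a glycoprotein of lipid-laden macrophages and of osteoclasts and osteoblasts, had signals of 148, 87.8 and 211 in central and 505, 466 and 428 in endosteal arrays. The endosteal arrays were close to one another and the central ones spread widely, with B the lowest. The difference was 1.62 (SE 0.30, adjusted p = 0.0286; 0.0876 with the block). The call was kept only without central C (adjusted p = 0.0319), and the other leave-outs gave 0.0509 (without central B) to 0.0881 (without central A). The mean with its second probe set, which was at 10.6 and 6.94 in the 2 regions, gave 0.71 (adjusted p = 0.0640).

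Abcg1, the transporter that exports cholesterol to mature lipoproteins, did not pass: its signals were 863, 764 and 934 in central and 770.1, 927 and 668 in endosteal arrays, a difference of -0.12 (interval -0.54 to 0.30, adjusted p = 0.691). The interval lies below the Abca1 difference of 0.85, although the 2 genes share the same arrays and the gap between them was not tested. A second Abcg1 probe set differed by -0.71 and the mean of probe sets by -0.41, neither passing. Trem2, a lipid-sensing receptor of macrophages, had 89.0, 116 and 52.7 in central and 246, 38.0 and 15.8 in endosteal arrays. Endosteal A was the highest and endosteal C the lowest of all 6. The log2 difference was -0.36 (interval -2.36 to 1.63, adjusted p = 0.805), whereas the log2 ratio of the mean signals, the comparison the study names, was 0.21. A second Trem2 probe set differed by 1.10 (adjusted p = 0.253 over probe sets), so these arrays give no direction for Trem2.

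Among the 6 scavenger and pattern receptors only Mrc1 rose, and the median was -0.09. Mrc1, the mannose receptor CD206 of macrophages and sinusoidal endothelium, had signals of 777, 1319 and 1103 in central and 2542, 3865 and 3342 in endosteal arrays. The order A, C, B was the same in both regions, which did not overlap. The mean went from 1067 ± 273 to 3249 ± 666 (SD, n = 3), a difference of 1.60 (SE 0.26, adjusted p = 0.0208; 0.0521 with the block). The call held without central B (0.0491) or endosteal A (0.0403) and was lost without central A (0.0544), central C (0.0650), endosteal B (0.0620) or endosteal C (0.0582).

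The other 5 receptors gave no call. Clec7a, the beta-glucan receptor Dectin-1, had signals of 6298, 3624 and 4522 in central and 3924, 3729 and 4212 in endosteal arrays (difference -0.25, adjusted p = 0.526). Lgals3, encoding galectin-3, had 22024, 17299 and 17519.8 in central and 15843, 15479.6 and 15567 in endosteal arrays. All its endosteal arrays were below all its central ones, at a difference of -0.27 (interval -0.62 to 0.09, adjusted p = 0.284).

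Cd36, a receptor for oxidised lipids and fatty acids, had 1657, 2499.7 and 2378 in central and 1354, 2542 and 2472 in endosteal arrays, with A lowest in both (difference -0.07, interval -0.84 to 0.70). Msr1, the class A scavenger receptor, had 242, 222 and 199.6 in central and 192, 229 and 192 in endosteal arrays (difference -0.11, interval -0.46 to 0.24). Marco, a scavenger receptor of marginal zone and alveolar macrophages, was at the floor of the arrays, 3.69 to 11.4 in central and 5.56 to 19.5 in endosteal RNA (difference 0.19, adjusted p = 0.675).

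Of the 10 genes of resident macrophage identity 1 rose, with a median of 0.29. Maf, which encodes the transcription factor c-Maf of mature macrophages, had signals of 896, 1344 and 1249.7 in central and 2728, 3008 and 2943 in endosteal arrays. Central A was the lowest, and the regions were well apart. The mean went from 1163 ± 237 to 2893 ± 146 (SD, n = 3), a difference of 1.32 (SE 0.19, adjusted p = 0.0151; 0.0620 with the block). The adjusted p was 0.0534 without endosteal B. All 6 Maf probe sets were higher in endosteal RNA, and the other 5 differed by 0.46 to 1.48.

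Csf1r, the receptor for the growth factors Csf1 and interleukin 34, had 9113, 8181 and 8644 in central and 10896, 10718 and 11936 in endosteal arrays. The regions did not overlap, but the difference of 0.37 (interval 0.07 to 0.67) had an adjusted p of 0.110. Of its other probe sets 1 differed by -0.25. Cd68, a lysosomal glycoprotein also abundant in osteoclasts, was similar, at 2670.5, 2033 and 2319 in central and 2839, 3232 and 3736 in endosteal arrays (difference 0.48, interval 0.05 to 0.90, adjusted p = 0.134). Both genes passed with an intensity trend and where only the genes above the median level were tested. They also passed after scaling to the poly-A controls, where 58.7% of all genes were called higher. After median centring the differences were only 0.11 for Csf1r (adjusted p = 0.677) and 0.22 for Cd68 (adjusted p = 0.519). As a mean of probe sets Csf1r differed by 0.16 (adjusted p = 0.523).

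Adgre1 encodes F4/80, the classical mouse macrophage marker. Its signals were 1484, 1369 and 1399 in central and 1306, 1728 and 1399.6 in endosteal arrays, and the endosteal values spanned the central ones. The difference was 0.05 (interval -0.32 to 0.42, adjusted p = 0.859). That interval lies below the differences of the called genes.

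Cd5l, a secreted survival factor of tissue macrophages under LXR control, had 921, 1426 and 1285 in central and 1281, 2982 and 2714 in endosteal arrays. Array A was the lowest in both regions, and within letters A, B and C the difference was 0.47, 1.06 and 1.07. Over the 3 arrays it was 0.86 (interval -0.06 to 1.79, adjusted p = 0.195), and the regions overlapped at endosteal A.

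F13a1, the factor XIII subunit of monocytes and platelets, had signals of 15498, 11927 and 11732 in central and 10917, 8512 and 8020.2 in endosteal arrays. All endosteal arrays were below all central ones, and the difference was -0.51 (interval -0.99 to -0.04, adjusted p = 0.144). It was called lower with an intensity trend or among genes above the median level. Megakaryocyte and platelet markers were higher in endosteal RNA on the same arrays, as given with the other marker lists.

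Siglec1 (CD169), Vsig4, Folr2 and Lyve1, markers of resident macrophage subsets, were dim, with array signals of 32.8 to 271. Siglec1 had 104, 47.2 and 50.4 in central and 87.6, 32.8 and 128 in endosteal arrays, a difference of 0.18 (interval -0.99 to 1.34). Vsig4 differed by 0.22 (interval -0.86 to 1.29), Folr2 by 0.38 (interval -0.45 to 1.22) and Lyve1 by 0.10 (interval -0.48 to 0.69). All 4 overlapped between regions, and the intervals leave room for changes of the size seen for Abca1 in 3 of them and for a smaller one in Lyve1.

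**Figure D3:**
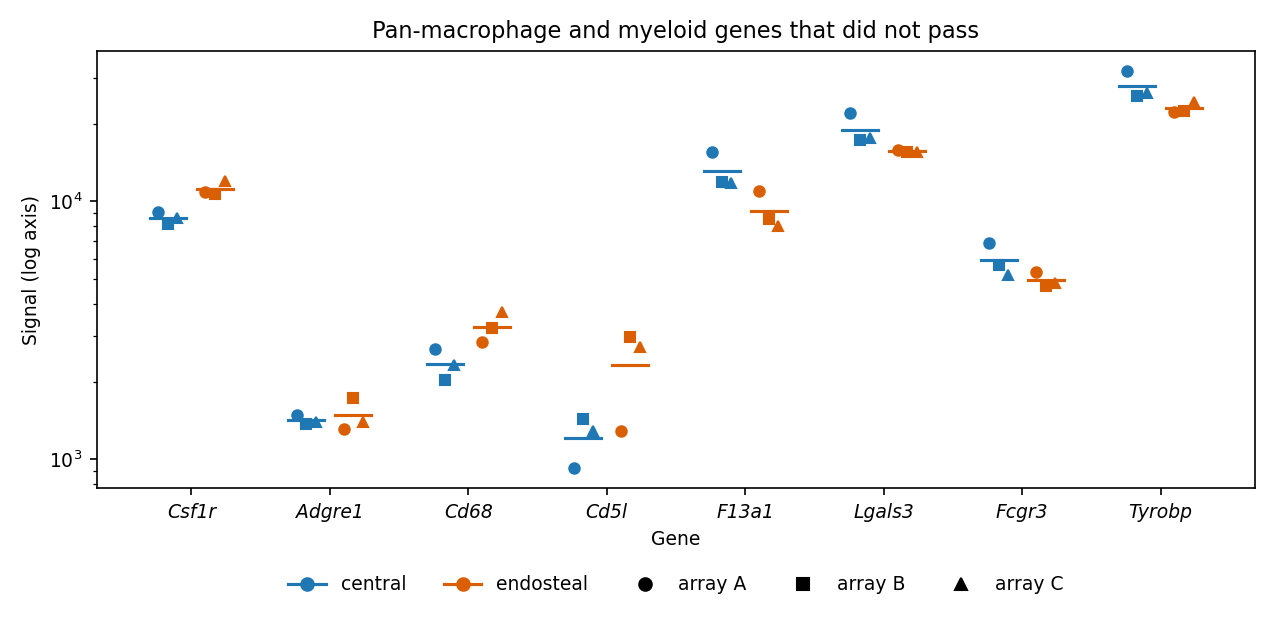
Signal on a log axis for 8 macrophage and myeloid genes that did not pass, 1 point per array (circle A, square B, triangle C), central in blue and endosteal in orange, with bars at the mean of 3 arrays. Csf1r and Cd68 lie somewhat higher in endosteal RNA, F13a1, Lgals3 and Tyrobp lower, and Adgre1, Cd5l and Fcgr3 overlap.

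Of the Fc receptors and their adaptor, 0 of 4 passed in either direction, with a median of -0.11. Tyrobp, the adaptor DAP12 that signals for Trem2 and many other myeloid receptors, had signals of 32104, 25639 and 26254 in central and 22202, 22472 and 24328 in endosteal arrays. All endosteal arrays were below all central ones, and the difference was -0.28 (interval -0.63 to 0.08, adjusted p = 0.266).

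Fcgr1, the high-affinity IgG receptor, had 646, 632 and 412 in central and 782, 735 and 694 in endosteal arrays, not overlapping, at a difference of 0.40 (adjusted p = 0.264). Its second probe set differed by -0.25, and the mean of both by 0.076. Fcgr3, an activating receptor also of neutrophils, had 6890.2, 5655 and 5183 in central and 5306, 4694 and 4839 in endosteal arrays (difference -0.25, interval -0.63 to 0.14). Fcgr2b, the inhibitory receptor shared with B cells, had 4677, 4354 and 4133 in central and 4833, 4634 and 4060.2 in endosteal arrays, with overlap (difference 0.04, interval -0.29 to 0.37). Its 4 other probe sets differed by -0.23 to 0.38, so its sign depends on the probe set.

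Letter by letter, 13 of the 29 genes were higher in endosteal RNA in all 3 letters, 4 were lower in all 3 (F13a1, Lgals3, Fcgr3 and Tyrobp) and 12 were mixed. The same count over all genes is not given here, so these counts have no baseline. Array A was the lowest in both regions for 8 genes, namely Cd5l, Maf, Axl, Tyro3, Timd4, Mrc1, Marco and Cd36. Array B was so for 4 and array C for 4. Central A was the lowest central array for 6 of the 7 called genes.

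Several probe sets were available for 15 of the 29 genes, giving 28 beyond those used. Of these, 18 had the sign of the one used, and 9 genes had at least 1 of opposite sign. Among the called genes 8 of 9 other probe sets were positive, the exception being the dim second one of Gpnmb. Fitted over all 45037 probe sets, where 3.21% were called higher, those used for Axl and Abca1 missed the threshold at adjusted p-values of 0.0538 and 0.0536.

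**Figure D4:**
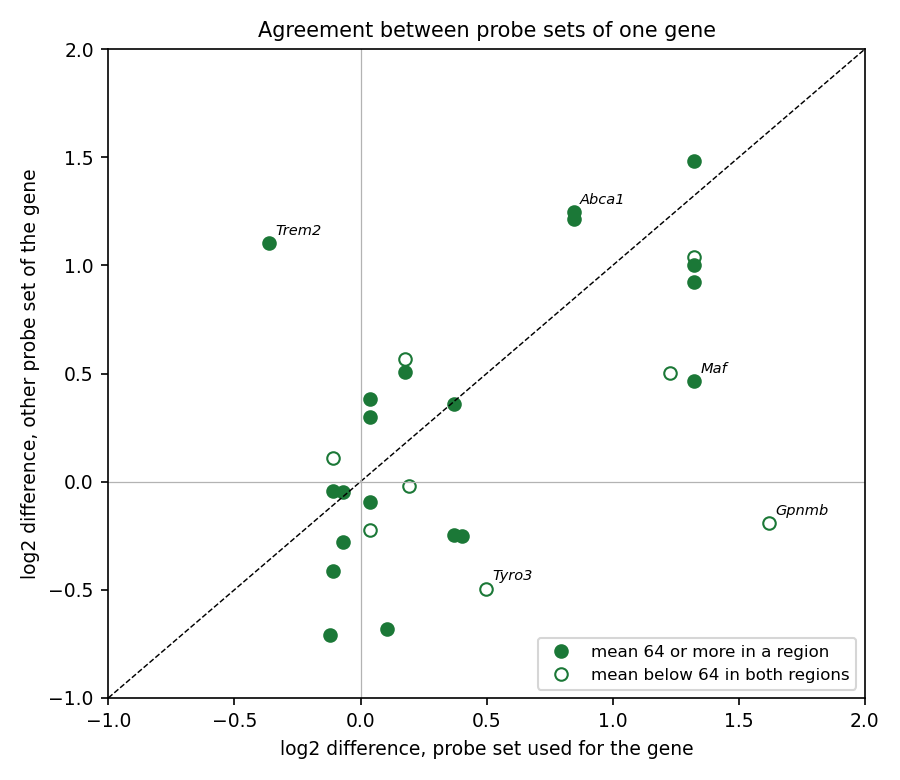
Log2 difference (endosteal minus central) of each of the 28 other probe sets (vertical axis) against that of the probe set used for the same gene (horizontal axis), with the line of equality dashed; open circles have mean signals below 64 in both regions. Maf and Abca1 probe sets lie in the upper right, and Trem2, Tyro3 and Gpnmb show opposite signs.

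Partners of these genes in the uptake of dying cells and in lipid handling were counted in a list of 54 other genes, of which 51 were measured. Of the 51, 14 rose and 4 fell, with a median of 0.19 (all genes 0.10). Beside these and the counts of the next 3 lists stand the shares of all genes, 7.74% higher and 3.97% lower. The lists too were chosen with earlier results of these data known, so the shares are no independent comparison. Gas6, the ligand of Axl and Mertk, had signals of 349, 556 and 844 in central and 3229, 3150.5 and 3016 in endosteal arrays. The regions were far apart, at a difference of 2.48 (SE 0.32, adjusted p = 0.0119), although the mean over its probe sets gave 1.28 with an adjusted p of 0.103. Pros1, which encodes protein S, went from 352 ± 49.3 to 902 ± 52.0 (SD, n = 3), a difference of 1.33 (SE 0.15, adjusted p = 0.00946).

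Mfge8, a secreted bridge between phosphatidylserine and integrins, rose by 0.84 in log2 (mean signal 332 to 602, adjusted p = 0.0336; 0.0637 after median centring). C1qa, a chain of the complement component that coats dying cells, rose by 1.56 in log2 (mean signal 1292 to 3863, adjusted p = 0.00765), and C1qb and C1qc rose too. Stab2, a phosphatidylserine receptor of sinusoidal endothelium, rose by 1.41 in log2 (mean signal 369.7 to 985, adjusted p = 0.0321). Nr1h3, which encodes LXR alpha, rose by 0.80 in log2 (mean signal 138 to 253, adjusted p = 0.0185; 0.0583 after median centring).

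The 4 that fell were Rubcn (-1.28, adjusted p = 0.0355), needed for LC3-associated phagocytosis, Cd300lb (-1.22, adjusted p = 0.0101), an activating receptor for phosphatidylserine, Dock2 (-0.70, adjusted p = 0.0257), a Rac activator of leukocytes, and the leukocyte GTPase Rac2. The signal against uptake did not pass on either side: Cd47 differed by -0.12 (adjusted p = 0.583) and its receptor Sirpa by -0.44 (adjusted p = 0.120).

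Among macrophage regulators and growth factors, 21 of 24 were measured, 4 rose and 6 fell, with a median of -0.57. Both ligands of Csf1r rose. Il34 had signals of 43.9, 57.2 and 25.4 in central and 216, 286 and 275 in endosteal arrays, a difference of 2.27 (SE 0.25, adjusted p = 0.00859). Csf1 had 616, 495 and 432 in central and 931, 1109 and 1045 in endosteal arrays, a difference of 0.99 (adjusted p = 0.0254), which missed the threshold as a mean of probe sets (0.0611) and after median centring (0.0623).

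Spic, the transcription factor of iron-recycling macrophages, rose by 0.90 in log2 (mean signal 439 to 845, adjusted p = 0.0360; 0.0946 after median centring). Id3, a transcriptional inhibitor with a role in Kupffer cells, rose by 1.83 in log2 (adjusted p = 0.0147). Spi1, encoding PU.1, fell, with signals of 4593, 3108 and 3317 in central and 2111, 1682 and 1768 in endosteal arrays (difference -0.97, adjusted p = 0.0370). Csf2rb, the shared receptor chain for GM-CSF and interleukin 3, fell (difference -1.13, adjusted p = 0.0200), and so did Stat6, which transmits interleukin 4 signals (-0.92, adjusted p = 0.0218).

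Of 22 monocyte genes 21 were measured, 3 fell and none rose, with a median of -0.22. Ccr2, the receptor by which monocytes leave the marrow, had signals of 8853, 7193 and 7109.6 in central and 4837, 3903 and 3836 in endosteal arrays, a difference of -0.88 (adjusted p = 0.0296; 0.144 as a mean of probe sets). Irf7 (-1.21, adjusted p = 0.0301), an interferon regulator, and the chemokine Ccl6 (-0.86, adjusted p = 0.0246) also fell. Cx3cr1, the fractalkine receptor, differed by -1.18 without passing (adjusted p = 0.0895), and Lyz2, encoding lysozyme, by 0.33 (adjusted p = 0.141; difference -0.16 after quantile normalisation).

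Among activating adaptors and Fc receptor partners, 16 of 17 were measured, 1 rose and 5 fell, with a median of -0.64. The riser was Fcgrt, the neonatal Fc receptor, which recycles IgG, whose mean signal went from 495 to 1474 (difference 1.54, adjusted p = 0.00750). Pirb (-0.95, adjusted p = 0.0358), an inhibitory receptor, Ptpn6 (-0.83, adjusted p = 0.0419), the phosphatase SHP-1, and Trem1 (-0.81, adjusted p = 0.0223; 0.0969 as a mean of probe sets), a receptor that amplifies inflammation, fell.

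The downward calls in these lists depend on the scaling. After scaling to the poly-A controls 0 genes of the 4 lists were called lower, and 44, 9, 14 and 7 were called higher, in the order given, of 51, 21, 21 and 16 measured and beside 58.7% of all genes. After median centring 6, 12, 6 and 8 were called lower and 11, 2, 0 and 1 higher. With the replicate block 0 genes of any of the 4 lists were called by limma, the smallest adjusted p among the named ones being 0.0535 (Fcgrt). Without any 1 array, 5 to 11 of the 51 uptake and lipid genes were called higher and 1 to 2 lower, 1 to 3 and 0 to 1 of the regulators, 0 to 2 of the monocyte genes lower, and 1 higher and 0 to 1 lower of the adaptor list.

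**Figure D5:**
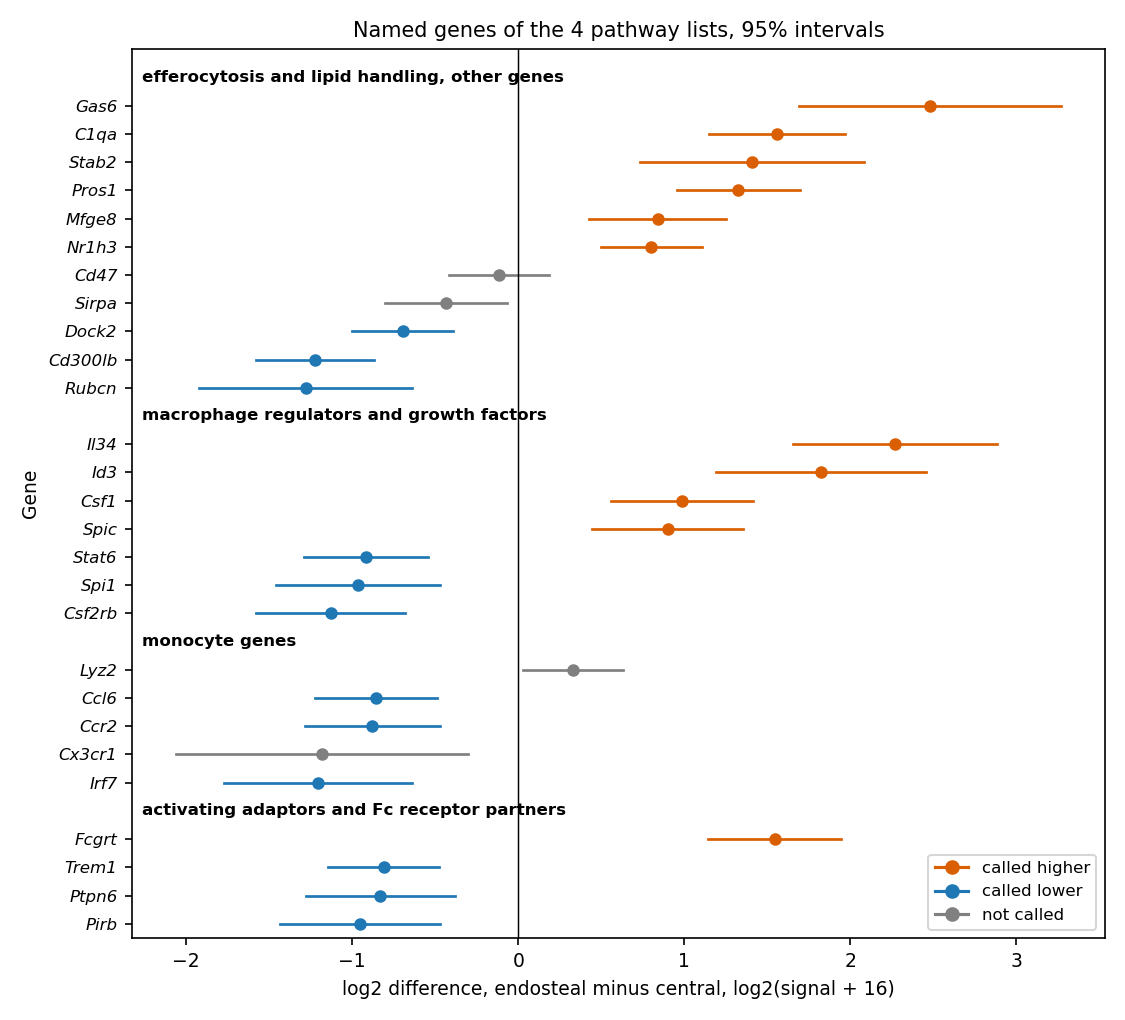
Log2 difference between regions (endosteal minus central) with 95% confidence intervals for the named genes of the 4 lists, called higher in orange, called lower in blue and not called in grey. Gas6 (2.48) and Il34 (2.27) lie farthest right, and Rubcn (-1.28) lies farthest left.

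Markers of other cells also differed between the regions on the same arrays. The summed signal of 12 osteoclast markers was 43206 to 44179 in central and 66001 to 83765 in endosteal arrays, with 7 genes called higher. That of 12 endothelial markers was 1816 to 2612 and 6261 to 6565 (8 higher), and that of 11 osteoblast and fibroblast markers 1949 to 2596 and 74431 to 91622 (10 higher). For 12 skeletal muscle markers it was 693 to 1129.8 and 75259 to 148465 (12 higher, endosteal A the highest), and for 8 adipocyte markers 2966 to 5674 and 13711 to 16952 (4 higher).

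Markers of blood lineages were called in both directions. Sums for 10 megakaryocyte and platelet markers were 28726 to 56197 in central and 103252 to 123060 in endosteal arrays (7 higher). Those for 11 neutrophil markers were 367559 to 403703 and 568550 to 577365 (5 higher and 2 lower; 1 higher after quantile normalisation and 0 after median centring, 0 to 3 over the leave-outs), and those for 11 B lymphocyte markers 21829 to 34178 and 8798 to 16681 (4 lower). None of 10 erythroid and 9 dendritic cell markers was called. Over the leave-outs 1 to 5 megakaryocyte, 4 to 7 endothelial and 0 to 3 adipocyte markers were called higher, and 0 to 4 B lymphocyte markers lower. Those of osteoclasts (5 to 6 higher), muscle (12) and osteoblasts and fibroblasts (10 to 11) changed little. With the replicate block 2 osteoclast, 10 muscle and 6 osteoblast and fibroblast markers were still called higher, and 0 markers of the endothelial, adipocyte, megakaryocyte, neutrophil and B lymphocyte lists were called. After scaling to the poly-A controls 6 erythroid, 4 dendritic cell and 9 neutrophil markers were called higher, and 0 B lymphocyte markers lower. Among 26 measured defining markers of these cell types the lowest means were 24.8 (Myl1, central) and 129 (Pax5, endosteal). Signals at the floor also lie above 0, as for Marco, so these means do not show each cell type to be present.

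Several genes described above are also made by those cells: Mrc1 and Stab2 by sinusoidal endothelium, Gpnmb and Cd68 by osteoclasts, F13a1 by megakaryocytes, and Gas6, Csf1 and Axl by stromal cells. The part of these cells in the differences was not tested, and the arrays do not show which cells made the other genes, Apoe included.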

How the data were processed

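RNA of 3 central and 3 endosteal samples from femurs of 3 mice was labelled as biotin cRNA from 2 micrograms of total RNA by a one-cycle kit, per the labels' protocols, and read on 6 Affymetrix arrays. The deposited values are linear probe set signals (intensity), which the authors had scaled to one trimmed mean, since the mean after dropping 2% at each end was 500.003 on every array. The summarising software is not given in the sources used here. The number of arrays limits the precision.

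Of 45101 probe sets, 34945 name 1 gene, 932 several, 64 are controls and 9160 are unnamed. Names come from the platform annotation, and 34741 probe sets matched RefSeq (GRCm38.p6). Differences were fitted with limma 3.58.1 (R 4.3.3) on log2(signal + 16), as lmFit and eBayes with region alone, all genes together. The fitting code was checked on simulated signals. Deviations from the region means of arrays A, B and C correlated with those of their namesakes at 0.05, 0.04 and 0.01 across 18193 genes, and among the 9096 brighter genes at 0.26, 0.13 and 0.10. Because the mice were shared, values with the block are given for the 7 called genes and Timd4, and as counts for the set and the lists. Most other genes are given with the fit by region alone, which ignores any pairing by letter.

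The alternatives were 3 scalings, pseudocounts of 1 and 64, genes above the median level, the mean of probe sets, a fixed or random block, an intensity trend and leaving out each array. The members and lists were chosen with earlier results of these data known. Every member is accounted for. From each pathway list up to 3 called genes with the largest change each way are named, besides preset ligands and regulators. C1qb, C1qc and Rac2 were named after their values were seen.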

Additional observations from a re-analysis of the deposited data

How the results depend on the processing

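Of the 29 genes, 7 were called higher as reported. With the replicate block 0 were called higher, and over all genes 85 were higher and 0 lower. Scaling to the poly-A controls gave 23 (10675 of all genes, 1409 as reported), and leaving out each array in turn gave 2 to 5 (502 to 890). The other settings gave 5 (mean of probe sets, 1111 of all genes) to 10 (intensity trend, 2184). The count called lower, 0 as reported, became 1 (F13a1) among genes above the median level and 1 (F13a1) with an intensity trend. The median difference, 0.22 as reported, was -0.047 after median centring, 0.12 after quantile normalisation, 0.37 with a pseudocount of 1, 0.37 among genes above the median level and 1.07 after scaling to the poly-A controls, and 0.18 to 0.36 over the leave-outs.

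Signs of small differences turned with the scaling. After quantile normalisation Siglec1 was at -0.17, Vsig4 at -0.088 and Lyve1 at -0.039. After median centring Adgre1 was at -0.21, Siglec1 at -0.084, Vsig4 at -0.047, Lyve1 at -0.16, Marco at -0.072 and Fcgr2b at -0.22. After scaling to the poly-A controls F13a1 was at 0.52, Msr1 at 0.85, Cd36 at 0.95, Clec7a at 0.78, Lgals3 at 0.76, Trem2 at 0.45, Abcg1 at 0.89, Fcgr3 at 0.78 and Tyrobp at 0.75. As means of probe sets Lyve1 was at -0.29 and Trem2 at 0.37.

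Leaving out each array gave ranges across 0 for Tyro3 (-0.0099 to 0.90), Cd36 (-0.25 to 0.22), Fcgr2b (-0.015 to 0.11), Lyve1 (-0.13 to 0.26), Adgre1 (-0.066 to 0.13), Vsig4 (-0.074 to 0.67), Marco (-0.047 to 0.34), Siglec1 (-0.16 to 0.62) and Trem2 (-1.25 to 0.27). The cause of these shifts was not tested. All 7 called genes kept their direction under every setting run. Tyro3 and Marco, with means below 64 in both regions, were too dim for a difference to be read.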
